A study of Mus musculus with 7 samples.

Results

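Complement is a cascade of plasma proteins that tags particles and cells for removal. C1q recognises a target in the classical pathway, C4 and C2 build the classical C3 convertase, and factor B with factor D builds the alternative one. Both enzymes cleave C3, which coats the target and releases the anaphylatoxin C3a, and C5a is released further down. C3a and C5a are sensed by the receptors C3ar1 and C5ar1 on myeloid cells. White fat is a known source of factor D, the enzyme first described there as adipsin, while macrophages are the usual makers of C1q.

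The genes described here are 9 complement components and receptors, C1qa, C1qb, C1qc, C2, C3, C4b, Cfb, C3ar1 and C5ar1, chosen by name among the 57010 gene identifiers of the deposited count table. RNA was measured in mature white adipocytes freed by collagenase from the perigonadal fat of male mice on Teklad LM-485 chow, aged 20 weeks by the labels. The 3 control libraries came from FFA2 fl/fl mice, carrying floxed alleles of the short-chain fatty acid receptor gene Ffar2, and the 4 others from Adipoq-F2-KO mice, which carried the same floxed alleles with Cre under the adiponectin promoter, which is active in adipocytes. The labels give the controls no Cre, so the presence of Cre and the loss of FFA2 cannot be told apart. Littermates of both genotypes were housed together, and the comparison asks how adipocyte transcripts differ at baseline, without an obesogenic diet.

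The libraries held 30478997 to 39992605 counts. The targeted gene followed the labels, with Ffar2 at 1094 to 1404 counts in FFA2 fl/fl and 38 to 76 in Adipoq-F2-KO libraries, a log2 fold change of -4.36 (standard error 0.22, edgeR adjusted p = 8.0e-06). Adipocyte identity was clear, since Fabp4, Plin4 and Adipoq, which encode a lipid-binding protein, a lipid droplet protein and adiponectin, were among the most abundant transcripts, with Adipoq averaging 3608 ± 155 normalized CPM in FFA2 fl/fl (SD, n = 3) and 3087 ± 519 in Adipoq-F2-KO (SD, n = 4). Normalized CPM are counts divided by library size after TMM scaling. Library 4 of Adipoq-F2-KO stood apart in several lists. It had the lowest sum of 12 adipocyte markers, 26625 normalized CPM against 32582 to 38600 in the other 6 libraries, the highest sum of 9 endothelial markers, and the largest share of mitochondrial counts, 10.3% against 4.41% to 9.24%. Mitochondrial shares were 4.41% to 5.77% in FFA2 fl/fl and 6.61% to 10.3% in Adipoq-F2-KO, without overlap.

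None of the 9 complement genes was called between the genotypes. All 9 passed the filter on low counts, and 0 had a Benjamini-Hochberg adjusted p under 0.05 in edgeR's quasi-likelihood test, where 1.02% of the 17039 tested genes did. DESeq2 called 1, C3ar1, against 6.21% of the genes it tested. Higher means in Adipoq-F2-KO were seen for 7 of the 9, and lower ones for C2 and C4b. Their median log2 fold change was 0.14, beside 50.4% higher and a median of 0.0037 over all tested genes. At an unadjusted p under 0.05 there were 4 genes, C1qa, C1qb, C3ar1 and C5ar1, all higher, where 17.9% of all tested genes passed that p and 10.5% passed it with Adipoq-F2-KO higher. These are 2 of the 3 C1q chains and both receptors. The other 5 genes, C1qc, C2, C3, C4b and Cfb, had unadjusted p of 0.309, 0.138, 0.358, 0.207 and 0.568 in edgeR.

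**Figure D1:**
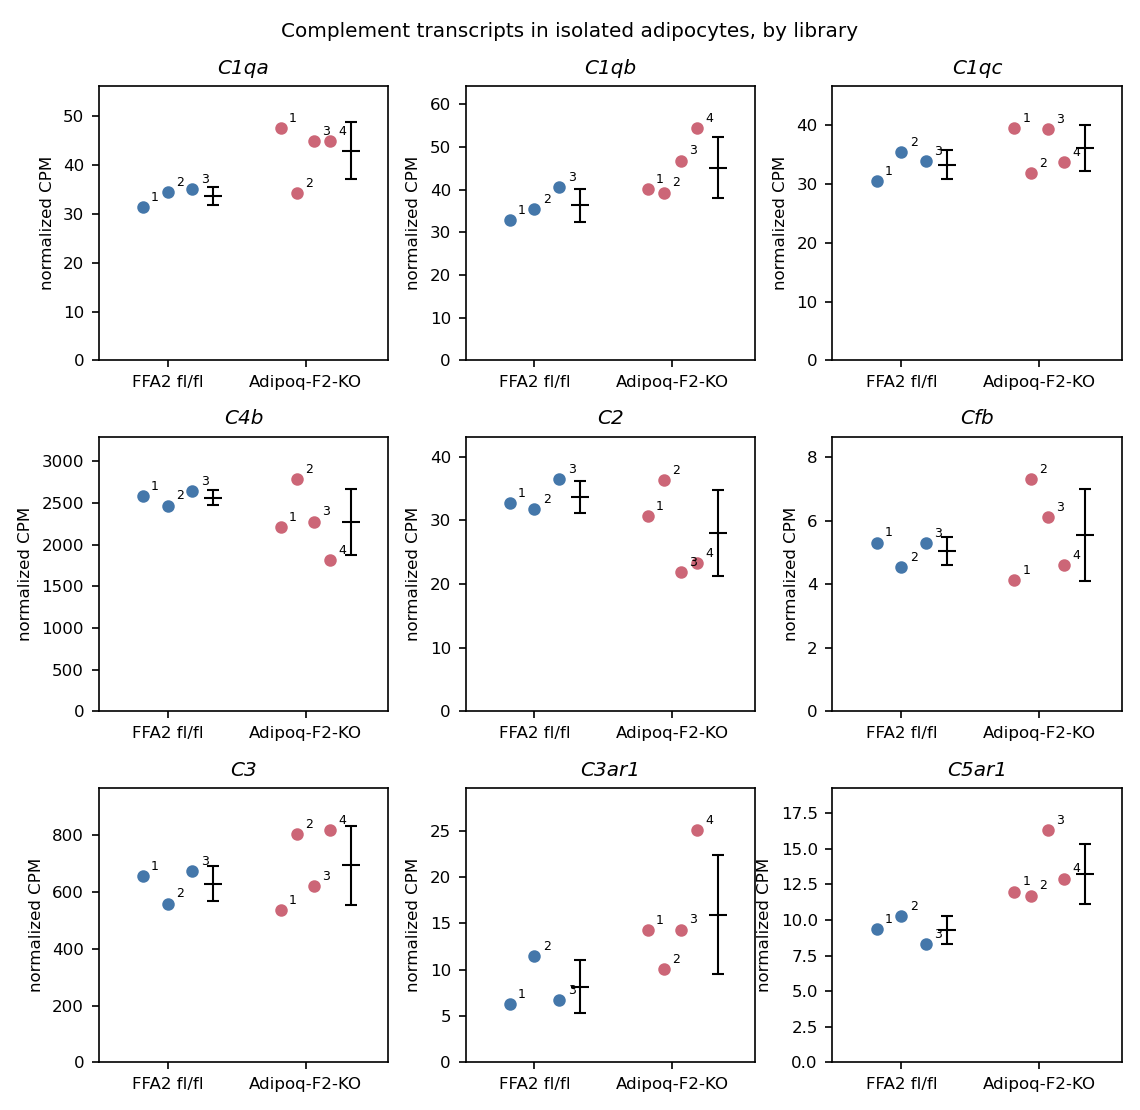
Normalized CPM of the 9 complement genes in each library (numbered points, 3 FFA2 fl/fl and 4 Adipoq-F2-KO), with the mean and SD of each genotype in black; each vertical axis starts at 0. Only for C5ar1 do all 4 Adipoq-F2-KO points lie above every FFA2 fl/fl point, and library 4 sets the highest C3ar1 value, 25.1.

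The stretch of DNA just before the start site is shown for 2 neighbouring C1q genes, which are read from one cluster on chromosome 4, and for C3ar1, the gene of this group with the largest difference. RefSeq promoter windows of GRCm38.p6 were matched for 5 of the 9 genes, C1qb, C1qc, C3, C3ar1 and C5ar1. Each line holds the 250 bases before the annotated start, 5′ to 3′ on the gene's own minus strand, at chr4:136886201-136886450, chr4:136892915-136893164 and chr6:122856158-122856407. Capitals mark GAGGAA or, on the other strand, TTCCTC, a core sequence bound by the macrophage factor PU.1.
C1qb: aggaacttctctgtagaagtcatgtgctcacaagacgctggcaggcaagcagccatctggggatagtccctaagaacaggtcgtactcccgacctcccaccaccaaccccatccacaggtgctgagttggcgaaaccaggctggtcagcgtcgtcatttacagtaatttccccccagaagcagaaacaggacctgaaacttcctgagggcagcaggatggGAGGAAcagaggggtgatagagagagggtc
C1qc: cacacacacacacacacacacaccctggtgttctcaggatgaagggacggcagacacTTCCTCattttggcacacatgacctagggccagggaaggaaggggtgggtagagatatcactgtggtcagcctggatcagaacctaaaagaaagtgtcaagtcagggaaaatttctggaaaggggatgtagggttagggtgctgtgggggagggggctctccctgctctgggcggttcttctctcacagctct
C3ar1: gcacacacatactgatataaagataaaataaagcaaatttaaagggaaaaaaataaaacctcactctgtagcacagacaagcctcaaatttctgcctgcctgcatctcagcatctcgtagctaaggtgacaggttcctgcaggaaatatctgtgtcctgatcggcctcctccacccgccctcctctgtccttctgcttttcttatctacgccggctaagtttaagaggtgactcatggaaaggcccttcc
The motif was found once in C1qb and once in C1qc and not in the windows of C3, C3ar1 and C5ar1. It occurs on either strand in 23.3% of the 32851 promoter windows of the same length, so these matches describe the sequence and no more.

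C1qa, C1qb and C1qc encode the 3 chains that assemble into C1q, the recognition molecule of the classical pathway. The genes lie side by side on chromosome 4, C1qb at 136607440 to 136613498, C1qc at 136617115 to 136620376 and C1qa at 136623228 to 136626114 in the deposited table's own coordinates. C1qa had 31.5, 34.6 and 35.03 normalized CPM in FFA2 fl/fl libraries 1 to 3 and 47.6, 34.3, 44.9 and 45.0 in Adipoq-F2-KO libraries 1 to 4. Of the Adipoq-F2-KO libraries 3 lay above every control and library 2 lay among the controls. The means, 33.7 ± 1.94 in FFA2 fl/fl (SD, n = 3) and 43.0 ± 5.89 in Adipoq-F2-KO (SD, n = 4), differed by a log2 fold change of 0.35 (standard error 0.12, edgeR adjusted p = 0.171).

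C1qb had 32.9, 35.4 and 40.6 normalized CPM in FFA2 fl/fl and 40.1, 39.3, 46.8 and 54.5 in Adipoq-F2-KO libraries, with 2 libraries above the controls. Its log2 fold change was 0.31 (standard error 0.13, edgeR adjusted p = 0.244), and 0.21 without library 4. C1qc had 30.5, 35.3 and 33.8 normalized CPM in FFA2 fl/fl and 39.5, 31.8, 39.3 and 33.7 in Adipoq-F2-KO libraries. It varied least between the genotypes among the 3 chains. Its log2 fold change was 0.12 (standard error 0.11, edgeR adjusted p = 0.617), within a 95% interval from -0.13 to 0.37. The 95% intervals of C1qa, 0.08 to 0.62, and C1qb, 0.03 to 0.60, overlapped that of C1qc. Whether the 3 chains shifted by unequal amounts was not tested. The ratio of C1qa to C1qc in normalized CPM was 0.979 to 1.04 in FFA2 fl/fl and 1.08 to 1.33 in Adipoq-F2-KO libraries, without overlap, whereas that of C1qb to C1qc, 1.00 to 1.20 and 1.02 to 1.62, overlapped. These ratios were formed after the values were seen and are a description.

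Macrophage transcripts were measurable in these adipocyte libraries, and they moved with the genotype. The 16 macrophage markers summed to 550.2 to 664 normalized CPM in FFA2 fl/fl and 748 to 920.4 in Adipoq-F2-KO libraries, without overlap, and none of the 16 was at 0 in all libraries. Of the 15 that were tested 12 lay higher (median log2 fold change 0.61), and 2, Cd68 and Lyz2, were called. Cd68 encodes a lysosomal protein of phagocytes and Lyz2 their lysozyme, with log2 fold changes of 0.72 and 0.69 (edgeR adjusted p = 0.0416 and 0.0383), beside 1.02% of all tested genes called. Of the 7 fits that each lacked one library, 1 called Cd68 and 3 called Lyz2. DESeq2 called 8 of the markers, where it called 6.21% of all the genes it tested. At an unadjusted p under 0.05 in edgeR 10 were higher and 1 lower, where 17.9% of all tested genes passed. Cd74, the most abundant marker, made up 31.8% to 42.7% of the sum. The 3 markers with lower means were Cd163, Mertk and Lyve1, with log2 fold changes of -0.12, -0.42 and -0.38 (edgeR adjusted p = 0.73, 0.152 and 0.471). In whole libraries, fewer or more cells of a type and less or more RNA per cell cannot be told apart.

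The C1q transcripts were also set against the macrophage markers. The 3 chains together had 94.9 to 109 normalized CPM in FFA2 fl/fl and 105 to 133 in Adipoq-F2-KO libraries, a ratio of means of 1.20, beside 1.35 for the macrophage markers. They amounted to 15.9% to 18.2% of the marker sum in FFA2 fl/fl and 14.1% to 16.6% in Adipoq-F2-KO libraries. C1qc amounted to 5.32% to 5.62% of the marker sum in FFA2 fl/fl and 3.66% to 5.15% in Adipoq-F2-KO, so that all 4 libraries lay below the controls. The proportions of the other chains overlapped, C1qa at 5.20% to 5.82% and 4.59% to 6.21%, and C1qb at 5.33% to 6.74% and 5.22% to 5.92%. C1qc was picked out after these values were seen, and the proportions were not tested.

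**Figure D2:**
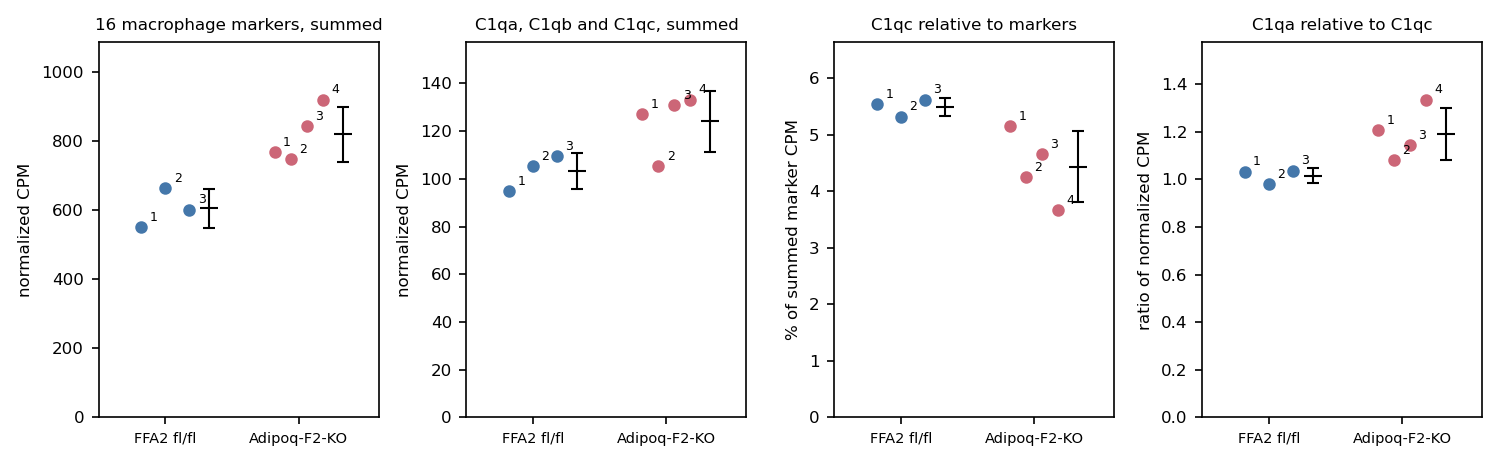
From left to right, the summed normalized CPM of 16 macrophage markers, that of C1qa, C1qb and C1qc, C1qc as a percentage of the marker sum, and the ratio of C1qa to C1qc, by library (numbered points) with mean and SD in black. The marker sum was higher and C1qc relative to it lower in all 4 Adipoq-F2-KO libraries, the one chain whose proportion did not overlap and chosen for that, while the C1q sums overlapped, with the highest FFA2 fl/fl library at 109 and the lowest Adipoq-F2-KO library at 105.

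C3ar1, the receptor of C3a, had the largest difference of the 9 genes. It had 6.33, 11.4 and 6.74 normalized CPM in FFA2 fl/fl and 14.3, 10.1, 14.3 and 25.1 in Adipoq-F2-KO libraries. Library 4 was far above the rest, and library 2 fell below FFA2 fl/fl library 2. The means, 8.17 ± 2.84 in FFA2 fl/fl (SD, n = 3) and 15.9 ± 6.42 in Adipoq-F2-KO (SD, n = 4), differed by a log2 fold change of 0.96 (standard error 0.30, edgeR adjusted p = 0.135; exact two-sided permutation test, p = 0.0857). DESeq2 called it (adjusted p = 0.0223), as did edgeR with all genes of at least 1 count (adjusted p = 1.1e-04), a setting under which 4.92% of genes were called and 3.76% were called higher. Without library 4 the log2 fold change was 0.66, and without FFA2 fl/fl library 2 it was 1.28.

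C5ar1, the receptor of C5a, was the one gene of the 9 whose genotypes did not overlap, where 17.6% of all tested genes did not overlap and 8.86% did so with Adipoq-F2-KO higher. It had 9.35, 10.3 and 8.32 normalized CPM in FFA2 fl/fl and 12.0, 11.7, 16.3 and 12.9 in Adipoq-F2-KO libraries. The means, 9.31 ± 0.970 in FFA2 fl/fl (SD, n = 3) and 13.2 ± 2.12 in Adipoq-F2-KO (SD, n = 4), differed by a log2 fold change of 0.51 (standard error 0.16, edgeR adjusted p = 0.135). The exact two-sided permutation test gave p = 0.0286, the smallest that 3 libraries against 4 allow, while after adjustment over all genes the difference did not pass. Its log2 fold change ranged from 0.39 to 0.58 over the fits that each lacked one library, none of which called it. Against the macrophage marker sum, C5ar1 amounted to 1.38% to 1.70% in FFA2 fl/fl and 1.40% to 1.93% in Adipoq-F2-KO, and C3ar1 to 1.12% to 1.72% and 1.35% to 2.73%, so both overlapped between the genotypes on that scale.

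C4b and C3 were by far the most abundant of the 9. C4b encodes complement C4, which both the classical and the lectin pathway cleave. It had 2581, 2466 and 2639 normalized CPM in FFA2 fl/fl and 2212, 2787, 2274 and 1813 in Adipoq-F2-KO libraries. The controls were close together, and 3 of the 4 Adipoq-F2-KO libraries lay below them and 1 above. The log2 fold change was -0.17 (standard error 0.13, edgeR adjusted p = 0.52), and -0.08 without library 4. Its 95% interval ran from 0.728-fold to 1.08-fold. C4b has a near-identical neighbour copy in the mouse, C4a, and the sources used here do not say how reads matching both were treated. C4a lay at 81.9 to 127 normalized CPM, and the ratio of C4b to C4a was 21.9 to 24.3 in all 7 libraries.

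C3, at which all pathways meet, had 655, 559.6 and 675 normalized CPM in FFA2 fl/fl and 535, 804, 622 and 819 in Adipoq-F2-KO libraries. The Adipoq-F2-KO libraries split around the controls, with 2 above all of them, 1 below and 1 among them. The means, 629.9 ± 61.6 in FFA2 fl/fl (SD, n = 3) and 695 ± 139 in Adipoq-F2-KO (SD, n = 4), differed by a log2 fold change of 0.14 (standard error 0.15, edgeR adjusted p = 0.662). The 95% interval ran from 0.881-fold to 1.38-fold, on both sides of no difference, and the log2 fold change fell to 0.05 when Adipoq-F2-KO library 4 was left out.

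C2 and factor B are the homologous proteases of the classical and alternative convertases, and their genes C2 and Cfb are neighbours on chromosome 17. C2 had 32.7, 31.8 and 36.5 normalized CPM in FFA2 fl/fl and 30.7, 36.3, 21.9 and 23.2 in Adipoq-F2-KO libraries. Of the Adipoq-F2-KO libraries 3 lay below every control, library 1 slightly and libraries 3 and 4 well below, and library 2 lay among the controls. Its log2 fold change was -0.26 (standard error 0.17, edgeR adjusted p = 0.435). Cfb had 5.31, 4.54 and 5.30 normalized CPM in FFA2 fl/fl and 4.14, 7.32, 6.11 and 4.61 in Adipoq-F2-KO libraries. The Adipoq-F2-KO libraries spread to both sides of the controls, and the log2 fold change was 0.13 (standard error 0.23, edgeR adjusted p = 0.801), turning to -0.02 without Adipoq-F2-KO library 2 and reaching 0.21 without library 4.

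The counts of C2 and Cfb are incomplete measures of their level. A predicted gene on the same strand, Gm20547, shares 1656 of the 3872 exonic bases of C2 and 2246 of the 2825 of Cfb in the deposited gene models. Gm20547 had 0 counts in all 7 libraries, so reads in the shared bases were not credited to it. By its default featureCounts leaves out a read that overlaps more than one gene, and the option used is not given in the sources. Per kilobase of all exons, Cfb had a mean of 1.89 normalized CPM over the 7 libraries, and per kilobase of unshared exon 9.21. For C2 these means were 7.86 and 13.7. The comparison between genotypes uses the same bases in every library.

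**Figure D3:**
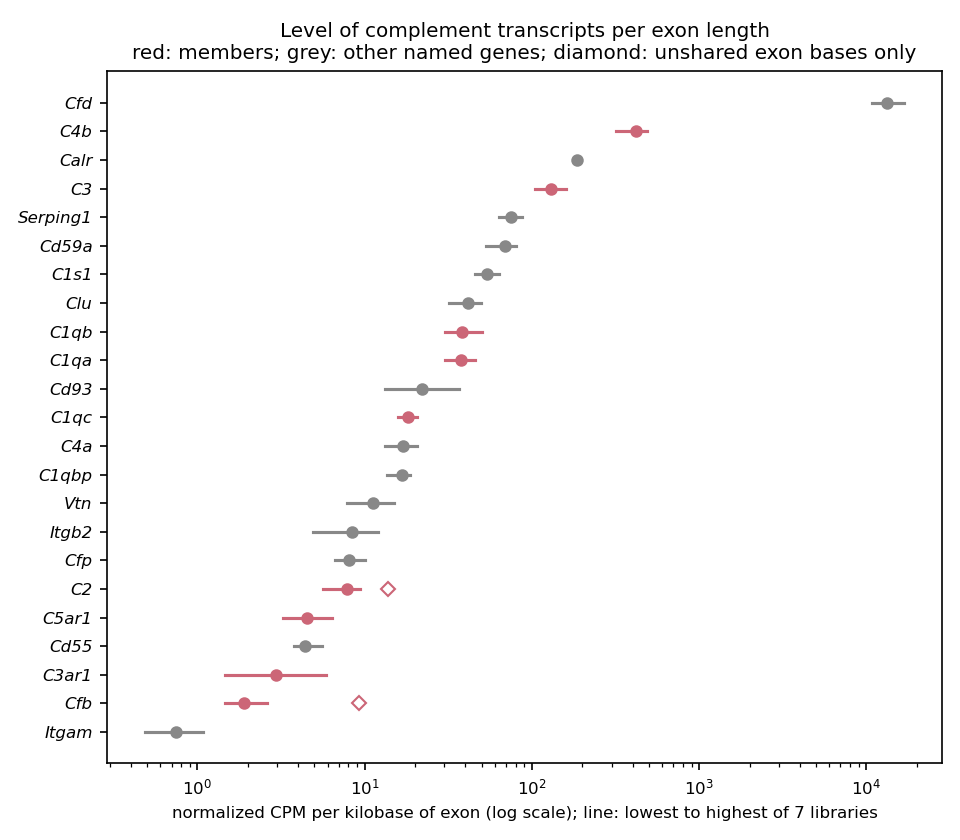
Mean normalized CPM per kilobase of exon over the 7 libraries (points, logarithmic axis) with the lowest and highest library (lines), for the 9 genes in red and the other named complement genes in grey. Open diamonds give C2 and Cfb per kilobase of exon not shared with Gm20547; Cfd stands at 13316, above C4b at 420.7 and C3 at 130.

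Normalized CPM per kilobase divide by the annotated exon length of a gene, and the length of the transcripts present was not measured. On that scale C4b came first in the order, with a mean of 420.7 over the 7 libraries, then C3 with 130. Next were C1qb with 38.0, C1qa with 37.5 and C1qc with 18.04. Last came C2, C5ar1 with 4.49, C3ar1 with 2.93 and Cfb. The libraries of C4b, 318 to 489, did not overlap those of C3, 104 to 159, and C3 did not overlap the C1q chains. C1qa and C1qb overlapped each other and lay above C1qc, at 15.8 to 20.4. The annotated exon length was 1040 bases for C1qa, 1088 for C1qb and 1931 for C1qc. Before division by length their means were 39.0, 41.4 and 34.8 normalized CPM, so the place of C1qc depends on that length. Among C2, C5ar1, C3ar1 and Cfb each overlapped its neighbour in the order. The places of C2 and Cfb hold for all exons only. Per kilobase of unshared exon, Cfb lay at 7.15 to 12.6, above C5ar1 at 3.24 to 6.35 and C3ar1 at 1.47 to 5.83, and C2 lay at 9.88 to 16.5, overlapping C1qc.

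Other complement genes were taken from a list of 48, of which 36 passed the filter on low counts. Of these 21 lay higher and 15 lower in Adipoq-F2-KO (median log2 fold change 0.09). Itgb2 alone was called by edgeR, beside 1.02% of all tested genes. DESeq2 called 3, Itgb2, Itgam and Cd93, all higher, where it called 4.67% of the genes it tested as higher. The genotypes did not overlap for 8 tested genes with Adipoq-F2-KO higher and for 1 lower, beside 8.86% and 8.72% of all tested genes.

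The 3 genes that DESeq2 called are all listed as receptors. Itgb2 encodes the β2 integrin chain, which pairs with the product of Itgam to form complement receptor CR3. Itgb2 had 18.8, 21.1 and 14.9 normalized CPM in FFA2 fl/fl and 27.7, 36.8, 32.3 and 28.0 in Adipoq-F2-KO libraries, without overlap. It rose by a log2 fold change of 0.77 (standard error 0.15, edgeR adjusted p = 0.0411), and it stayed called in 2 of the 7 fits with one library left out, those without Adipoq-F2-KO library 1 or 4. Itgam ranged over 2.44 to 2.64 and 3.24 to 5.44 normalized CPM, and its log2 fold change was 0.87 (standard error 0.25, edgeR adjusted p = 0.109). Cd93, a surface protein of endothelial and myeloid cells once described as a C1q receptor, had 88.3, 127 and 93.8 normalized CPM in FFA2 fl/fl and 167, 148, 158 and 244 in Adipoq-F2-KO libraries. Its log2 fold change was 0.80 (standard error 0.18, edgeR adjusted p = 0.0599), and the 9 endothelial markers, at 1060 to 1394 and 1475 to 2417 normalized CPM in sum, did not overlap either. The part of these cells in the values of Itgb2, Itgam and Cd93 was not tested. C1qbp, which encodes a mostly mitochondrial protein that binds C1q heads, was the one gene of the list below the controls in every Adipoq-F2-KO library, at 50.1 to 52.7 and 38.5 to 48.1 normalized CPM (log2 fold change -0.23, edgeR adjusted p = 0.261). Calr, for calreticulin, averaged 540.5 ± 11.7 normalized CPM in FFA2 fl/fl (SD, n = 3) and 538 ± 15.8 in Adipoq-F2-KO (SD, n = 4).

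Regulators were measured beside the components they restrain. Cd55, which speeds the decay of convertases on the cell surface, had 18.2 to 19.4 and 20.9 to 26.9 normalized CPM (log2 fold change 0.31, edgeR adjusted p = 0.201). Vtn, for vitronectin, which blocks the terminal complex, had 15.97 to 22.3 and 22.5 to 30.5 normalized CPM (log2 fold change 0.40, edgeR adjusted p = 0.19). The abundant regulators Serping1, the C1 inhibitor, Clu, clusterin, and Cd59a, which stops the terminal complex on membranes, had log2 fold changes of -0.05, 0.08 and -0.21 and overlapped between the genotypes.

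Cfd, which encodes factor D, was the most abundant complement transcript. It had 11830, 14223 and 15487 normalized CPM in FFA2 fl/fl and 9957, 13308, 11106 and 10031 in Adipoq-F2-KO libraries. In 3 of the 4 Adipoq-F2-KO libraries it lay below every control, and library 2 lay among them. The log2 fold change was -0.32 (standard error 0.13, edgeR adjusted p = 0.236). Of the 12 adipocyte markers 11 also lay lower (median log2 fold change -0.26), with 0 called by edgeR and 3 by DESeq2. At an unadjusted p under 0.05 there were 5 lower and 1 higher. The shares over all tested genes were 1.02% for edgeR, 6.21% for DESeq2 and 17.9% for the unadjusted p. Cfp, for properdin, which stabilises the alternative convertase and is made mainly by leukocytes, lay at 11.6 to 12.7 and 13.9 to 17.4 normalized CPM without overlap (log2 fold change 0.37, edgeR adjusted p = 0.162). C1s1, a protease of the C1 complex, averaged 163 ± 20.6 normalized CPM in FFA2 fl/fl (SD, n = 3) and 174 ± 20.3 in Adipoq-F2-KO (SD, n = 4). Of the terminal components, C6 and C7 were measurable, with means of 120 and 50.4 normalized CPM over the 7 libraries. Their log2 fold changes were 0.12 and 0.74 (edgeR adjusted p = 0.772 and 0.356). The terminal components Hc, which encodes C5, C8a and C8b, the lectins Mbl1 and Mbl2, and Cpn2 had no read in any of the 7 libraries. In the smallest library this leaves room for a level of 0.197 CPM (3 fragments, taken as 6 counts, counting error only).

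**Figure D4:**
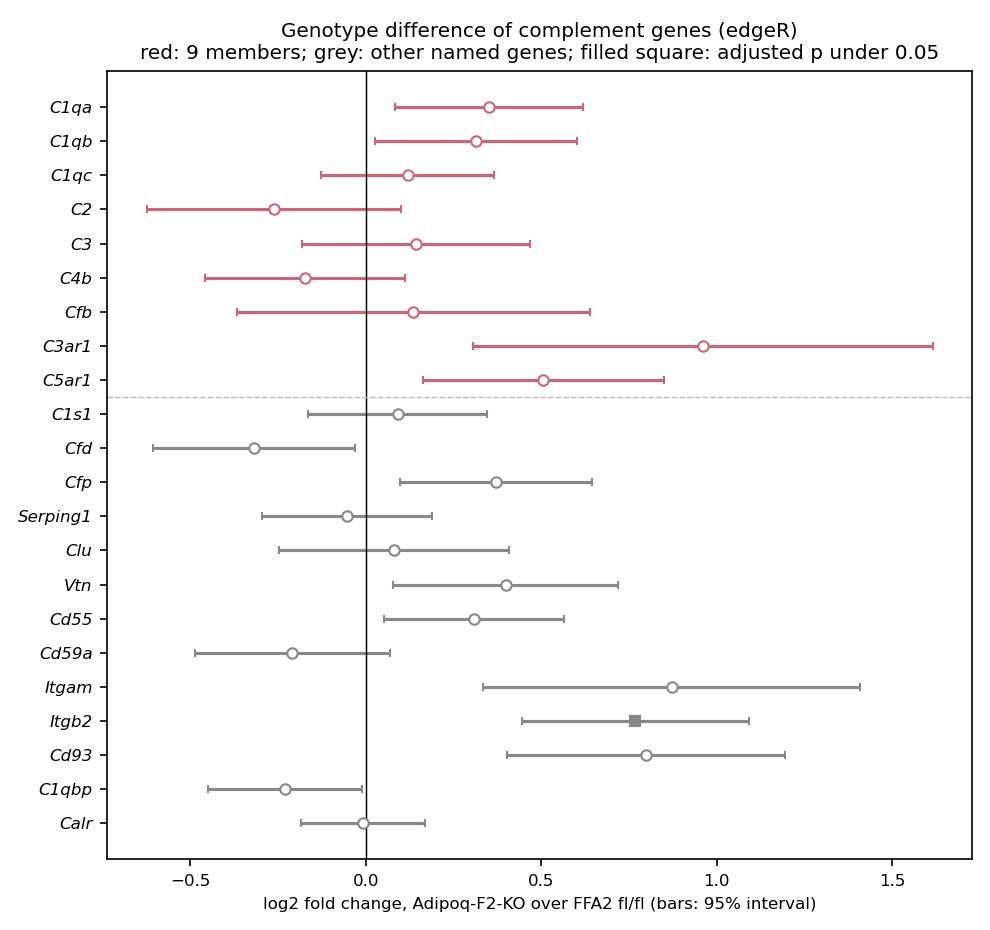
Log2 fold change of Adipoq-F2-KO over FFA2 fl/fl (points) with 95% intervals (bars) from edgeR for the 9 genes in red and the other named complement genes in grey; a filled square marks an adjusted p under 0.05. Itgb2 at 0.77 is the one filled square, and C3ar1 at 0.96 has the largest value and the widest interval.

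Transcripts of further cell types were compared in the same fit. The 11 progenitor markers, led by Col3a1 and Dcn, summed to 856 to 1142 normalized CPM in FFA2 fl/fl and 1224 to 1478 in Adipoq-F2-KO, without overlap, with 10 of 11 higher and 0 called by edgeR, 1 by DESeq2 and 6 at an unadjusted p under 0.05. The 9 endothelial markers, led by Cdh5 and Pecam1, were all higher, with 0 called by edgeR, 4 by DESeq2 and 7 at an unadjusted p under 0.05. Of 9 neutrophil markers 3 could be tested and 2 were higher, with 0 called by edgeR, and 1, Mmp9, called by DESeq2 and under an unadjusted p of 0.05 in edgeR. Ly6g was at 0 in all libraries, while the list's sum, mostly Mmp9 and S100a8, was 8.22 to 10.3 and 12.4 to 15.1 normalized CPM. The sums of 8 T cell, 6 B cell and 8 mesothelial markers overlapped between the genotypes. All 6 B cell markers lay lower in Adipoq-F2-KO (median log2 fold change -0.32). Their sum was 555 to 694 normalized CPM in FFA2 fl/fl and 327 to 686 in Adipoq-F2-KO. Of the tested T cell markers 2 lay higher and 2 lower, and of the mesothelial ones 4 higher and 3 lower. Neither edgeR nor DESeq2 called any marker of these 3 lists, and 1, 0 and 2 had an unadjusted p under 0.05. Of 15 genes induced by tissue dissociation, led by Egr1 and Fosb, 9 were higher and 6 lower. Of these 0 were called by edgeR or DESeq2 and 2 had an unadjusted p under 0.05. Over all tested genes edgeR called 1.02%, DESeq2 called 6.21% of those it tested, and 17.9% had an unadjusted p under 0.05. The part of these cells in the C3, C4b and Cfb values was not tested.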

How the data were processed

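The deposited values are raw counts per gene and library, which the authors obtained with Trimmomatic, STAR and featureCounts, as the submitters' processing notes list them. Versions and counting options are not given in the sources used here. The submitters' processing notes name GRCm38 (mm10), yet the table's gene coordinates differ from GRCm38, so they are given as deposited. Symbols matched 52029 of 57010 identifiers. From 85.5% to 88.8% of counts from 1 to 49 were even in a library, as when both mates of a pair are counted. No libraries of a genotype were alike within sampling noise (chi-square over degrees of freedom at least 41.5).

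Genes were filtered with filterByExpr, scaled with TMM and tested two-sided with glmQLFit and glmQLFTest of edgeR 4.0.16 (R 4.3.3) in a design holding genotype alone. Calls are genes whose p, adjusted after Benjamini and Hochberg over 17039 genes, was under 0.05. Standard errors are the log2 fold change over the square root of F, and 95% intervals use a t distribution with 11.3 degrees of freedom. The authors used DESeq2, in a version not given. The alternatives here were DESeq2 1.42.0, RLE scaling, a filter of at least 1 count, halved counts, a block on sample number and each library left out. In simulated data of 17039 genes, with 200 changed by a log2 fold of 1 in 3 draws, the test recovered 71.2% with 6.10% false calls. The sources used here do not say whether each library is 1 mouse, and p-values measure only the spread between libraries, which may be technical in part.

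The 9 genes and the lists were chosen with earlier results of these data known. Named are the 9 genes and Ffar2, other complement genes that were called by either tool, did not overlap at a mean of at least 1 CPM, or were among the 6 highest per kilobase, and the leading and absent markers of each list. Cd163, Mertk, Lyve1, Cd68, Adipoq, C4a, C6, C7 and Itgax were named after their values were seen. One further complement gene is not reported here and is left out of the lists' counts.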

Additional observations from a re-analysis of the deposited data

How the results depend on the processing

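The count of called genes over the whole table depended on the processing, 173 with edgeR, 890 with DESeq2 and 1403 with a filter of at least 1 count, and from 1 to 178 with one library left out. It was 1, 41 and 5 without FFA2 fl/fl library 1, 2 and 3, and 11 and 20 without Adipoq-F2-KO library 2 and 3. Of the 9 complement genes, 0 were called by edgeR, by RLE scaling, with halved counts and without any one library (0 to 0), and 1, C3ar1, by DESeq2 and with the filter of at least 1 count. Of the other complement genes, 1 was called by edgeR, 3 by DESeq2 and 4 with the filter of at least 1 count. Those 4 were Itgb2, Cd93, Itgax and C7. With one library left out the count was 0 to 1. It was 0 when a control library or Adipoq-F2-KO library 2 or 3 was left out. Ffar2 stayed called, at -4.62 to -4.22 with one library left out. The direction of the 9 genes turned in 1 of 108 alternative fits, Cfb at -0.02 without Adipoq-F2-KO library 2, in a range of -0.02 to 0.25 with one library left out. The cause of these differences was not tested.

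A replicate block on sample number, on 3 pairs without Adipoq-F2-KO library 4, gave 223 called genes, 0 of the 9 complement genes and 1 other, with Ffar2 at -4.63. Same-numbered libraries did not deviate together (correlations of 0.031, -0.024 and -0.020), so the numbers only name the libraries. The exact permutation test of 1 gene passed 0.05 for 1 of the 9, C5ar1. It also did so with RLE scaling, which is the scaling DESeq2 uses, and with halved counts. With a library left out it cannot pass and was not run.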

Other observations

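Among 13522 genes averaging 1 CPM or more, those most like the mean of C1qa, C1qb and C1qc across the 7 libraries in log2 normalized CPM were Clca2 (Pearson r = 0.986), Hotairm1 (0.978), Ddit4 (0.969), Lrrc8a (0.966) and 1600020E01Rik (0.962). Those most like C3 were Dnajc18 (0.986), Ap1g1 (0.985), Usp25 (0.967), Dnase1l1 (0.958) and Slc35a1 (0.958). These are descriptions over 7 libraries that share depth and cell make-up. None of the macrophage markers is among them. Only the 5 highest of 13522 genes were kept, so this absence does not show how alike those markers were.

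Among the 9 genes, C4b and C3ar1 ran most opposite across the 7 libraries (Pearson r = -0.879). C1qa ran with C3ar1 (0.811), C1qc (0.798) and C1qb (0.744), C1qb with C3ar1 (0.807), and C2 with C4b (0.802). C1qb and C1qc were less alike (0.352). C3 and C4b, the most abundant of the 9, were not alike (-0.098). These correlations pool both genotypes, so differences between the genotypes enter them.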
